A study of Caenorhabditis elegans with 2 samples.

Results

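The 33 genes described here code for the Wnt signalling pathway of Caenorhabditis elegans, and they were set beside all 19973 protein-coding genes of its nuclear genome. They were listed by name as pathway genes, with earlier results of these data known, and all 33 matched a gene of the annotation. The data are chromatin immunoprecipitation followed by sequencing (ChIP-seq) for CEH-20, a homeodomain protein of the PBX family that binds DNA with Hox and Meis-type partners. The animals were strain RW12211, in which CRISPR had inserted a TY1, EGFP and 3xFLAG tag at the ceh-20 gene (allele st12211). They were whole L4 larvae with a stated age of 49 hours, synchronized as L1 larvae that had been starved after bleaching. An antibody against GFP pulled down chromatin that had been sonicated, with a stated fragment size of 200 to 800 bp. There were 2 biological replicates, and both carried the tag, so the design holds 1 group and no comparison between conditions. Nothing in the labels says how many animals made up a sample, and control libraries were not analysed here.

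The deposited files are peak lists without read counts, so depth is unknown. A conservative list of 2522 peaks was drawn from both replicates after a threshold on the IDR, the irreproducible discovery rate, which scores how far the order of peaks holds from one input to another. A larger thresholded list held 2632 peaks, a ranked list without the threshold held 56499, and each replicate had its own lists, of 1249 thresholded and 40237 ranked peaks for replicate 1 and of 1490 and 36837 for replicate 2. The signal of a peak is the authors' own value of its strength. Its scale is not stated, so it is compared below only within 1 list. Since whole animals were used, binding in few cells and weak binding in many cells cannot be told apart.

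Wnt ligands are lipid-modified secreted proteins that bind Frizzled, Ryk and Ror receptors on other cells. In the canonical branch, the signal passes through Dishevelled and stops a complex of axin, APC, casein kinase 1 and GSK3 from destroying beta-catenin, which then works with the TCF factor POP-1. In C. elegans a second branch with the beta-catenins WRM-1 and SYS-1 acts in the 2 daughters of many dividing cells. There WRM-1 helps to lower nuclear POP-1, and SYS-1 is a coactivator of POP-1. Wnt signals guide the migrating Q neuroblasts, in which the Hox gene mab-5 responds to EGL-20 and BAR-1, and they pattern the vulval precursor cells, in which lin-39 acts. CEH-20 is a known cofactor of these Hox proteins.

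CEH-20 summits lay near the starts of 7 of the 33 Wnt genes. A gene was called bound when any of its transcript starts had a conservative summit in the window around it, which reached 2000 bp upstream and 500 bp downstream. The bound genes were mom-1, which modifies Wnt ligands for secretion, the receptor genes mom-5 and cam-1, the Dishevelled gene mig-5, the casein kinase 1 gene kin-19 and the beta-catenin genes bar-1 and wrm-1. They made up 21.2% of the members, against 9.57% of all protein-coding genes (1912 genes), and no test was made of this difference. Among genes with any ranked summit in the window, 7 of 26 members (26.9%) were bound, against 14.5% of such genes in all. The signals of the 7 window peaks ranged from 52.8 to 178 with a median of 76.0, and 2 of them, at mig-5 and mom-1, were in the stronger part of the conservative list, whose median is 83.2. All 7 summits lay upstream of the start. For 3 of the 7 genes the same summit also lay in the window of a neighbouring gene.

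The count depended on which replicate was read. In the thresholded list of replicate 1, 2 members were bound (6.06%, against 5.21% of all genes). In that of replicate 2, 5 were bound (15.2%, against 6.31% of all genes). The 2 genes bound in both were mig-5 and mom-1, which made up 6.06% of the members, against 3.98% of all genes. In the larger list 6 members were bound (18.2%, against 9.85% of all genes). Widened to the gene body with 10 kb on each side, the conservative list gave 15 of 33 members (45.5%, against 35.6% of all genes), and 18 members had no conservative summit in that range. The members are longer than most genes, with a median of 4732 bp against 2027 bp over all protein-coding genes, and the part of this length in the wider count was not tested. Counting only the gene itself, 4 members held a summit (12.1%, against 3.54% of all genes), namely mom-1, cam-1, lit-1 and vang-1. The part of gene length in this count was not tested either.

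Other readings of the lists changed which members were called, and the share of all genes is given beside each. In the strongest 630 and the strongest 1261 conservative peaks the bound members were mig-5 and mom-1, 2 genes in each case (6.06%, against 3.12% and 5.62% of all genes). With a q-value of at most 0.05, 6 were bound (18.2%, against 9.44%), without wrm-1. A window of 1000 bp upstream and 200 bp downstream held summits for 4 (12.1%, against 6.78%), and one of 5000 bp upstream for 11 (33.3%, against 15.2%). When a summit counted for the nearest start alone, 5 were bound (15.2%, against 6.62%), without mom-1 and mom-5. Without peaks near tRNA genes 6 were bound (18.2%, against 9.02%), without mom-1. All 7 were bound when any overlap of the peak with the window counted (against 9.99% of all genes), and when peaks with a signal under 20 were left out (against 9.56%). In the wider range, the list of replicate 1 gave 7 members (21.2%, against 21.5% of all genes) and that of replicate 2 gave 11 (33.3%, against 25.8%). The strongest 630 peaks gave 7 in that range (21.2%, against 13.2%) and the strongest 1261 gave 9 (27.3%, against 22.5%). Without summits that lay only in another gene's window it was 13 (39.4%, against 19.3%).

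**Figure D1:**
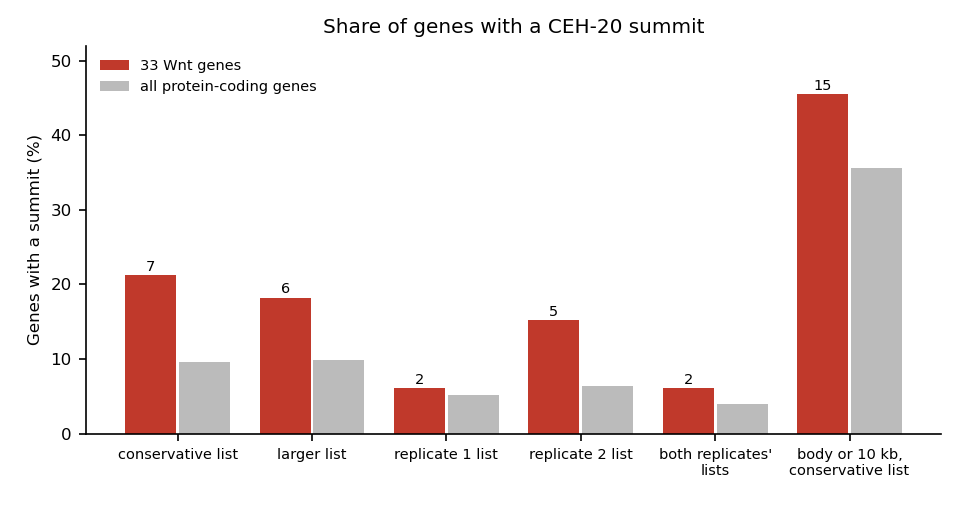
Share of genes with a CEH-20 summit, in percent, for the 33 Wnt genes (left bar of each pair, with the number of genes above it) and for all protein-coding genes (right bar). The first 5 pairs use the start window and the last uses the gene body with 10 kb on each side. The Wnt genes stood at 21.2% in the conservative list and at 6.06% in the list of replicate 1, where all genes stood at 9.57% and 5.21%.

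Of the 5 ligand genes none was bound, where 9.57% of all genes were. Differences between roles were not tested, and each role holds few genes. A single ligand gene, mom-2, which induces endoderm in the embryo, had a conservative summit within 10 kb (against 35.6% of all genes). It lay 6898 bp upstream of mom-2, in an intron of C08D8.1, with a signal of 76.4 and a snoRNA gene within 200 bp. The ligand genes egl-20, cwn-1, cwn-2 and lin-44 had no conservative summit within 10 kb. For egl-20, whose product directs the Q neuroblasts, the nearest conservative summit was 13836 bp from a start, and for cwn-2 it was 61379 bp away. In the ranked list cwn-1 had a window peak of 46.8, in the top 8.41% of that list, and mom-2 had 1 of 19.3, in the top 61.0%. The ranked list of replicate 1 held no summit in the window of either gene. That of replicate 2 held 1 of 32.9 at cwn-1, in its top 6.31%, and 1 of 16.7 at mom-2, in its top 36.2%.

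The secretion gene mom-1 carried the strongest peak of the whole set. The MOM-1 protein is the Porcupine-type acyltransferase that adds a lipid to Wnt ligands. The peak lay inside the gene (WBGene00003394), in an intron, 3462 bp downstream of its start and outside the window of any protein-coding gene. The nearest protein-coding start was that of cest-16, at 3368 bp. Its signal was 425, which ranked 16 of the 2522 conservative peaks. In the ranked lists it had a signal of 197 and rank 25 in replicate 1, and a signal of 206 and rank 15 in replicate 2, so both replicates placed it near the top. No tRNA or other noncoding gene was annotated within 200 bp of its summit.

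The window peak of mom-1 lay on a tRNA gene. It stood 769 bp upstream of mom-1 and 611 bp upstream of lev-9, a neighbouring gene read in the opposite direction that is needed to cluster acetylcholine receptors in muscle. Its signal was 128, with 72.2 in replicate 1 and 54.0 in replicate 2, and it was in the thresholded lists of both. Another peak, of 77.8, lay 6778 bp upstream of mom-1 in an intron of lev-9, again on a tRNA gene, and was in the thresholded list of neither replicate. The sequences of 101 bp around these 3 summits are shown to set the intron peak beside the tRNA peaks. They are from RefSeq assembly WBcel235, on the plus strand, which is that of mom-1, at chrX:6296524-6296624 for the intron, chrX:6292293-6292393 for the window and chrX:6286284-6286384 for the far upstream peak. Capitals mark CGTCTC on either strand, which stood out in an earlier scan of these same peaks.
mom-1 intron: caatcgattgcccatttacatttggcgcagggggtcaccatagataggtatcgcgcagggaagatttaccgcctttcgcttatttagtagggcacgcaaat
mom-1 window: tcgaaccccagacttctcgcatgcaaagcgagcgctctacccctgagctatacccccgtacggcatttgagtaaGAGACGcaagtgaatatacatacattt
mom-1 far upstream: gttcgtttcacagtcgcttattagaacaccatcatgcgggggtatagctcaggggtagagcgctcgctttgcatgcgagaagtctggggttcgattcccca

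Within the 101 bp shown, the window peak and the far upstream peak share a run of 58 bases, read on opposite strands, over their tRNA genes. The run begins at the first base shown for the window peak, so the full shared stretch may be longer. A read inside such a run fits both places, and how such reads were aligned is not stated in the labels or files. The intron peak of mom-1 held none of the 9 motifs searched within 50 bp of its summit. The other secretion gene, mig-14, the Wntless-type carrier of ligands, had no conservative summit within 10 kb and a ranked window peak of 25.5, in the top 40.3%.

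Receptor genes had 2 of 6 members bound (against 9.57% of all genes). In the gene or within 10 kb, 4 of 6 had a conservative summit (against 35.6% of all genes). The gene cam-1 (WBGene00000289) codes for the Ror receptor and is 14390 bp long with 4 transcript starts. Its window peak, at chrII:9301045-9301360, lay in an intron 1880 bp upstream of a start with a signal of 76.0. It ranked in the top 7.0% of the ranked list in replicate 1 and in the top 2.36% in replicate 2, and was in the thresholded list of replicate 2 only. A second intron peak of cam-1, at chrII:9306998-9307313, had a signal of 90.8. It stood 2303 bp upstream of a start, just outside the window, in the top 2.10% of replicate 1 and the top 4.67% of replicate 2. No other protein-coding gene had a start nearer to either summit. 

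The Frizzled gene mom-5 was bound by a summit 1882 bp upstream, with a signal of 82.9 and closer to the start of algn-10, at 1715 bp. This peak was in the top 6.90% of replicate 1 and in the top 2.58% of replicate 2, and only the thresholded list of replicate 2 held it. A stronger peak of 117 lay 2585 bp upstream of mom-5 and 1012 bp upstream of algn-10. The summits nearest to the limit of 2000 bp were thus those of cam-1 and mom-5 inside it, at 1880 and 1882 bp, and those of cam-1, lin-18 and mom-5 outside it, at 2303, 2414 and 2585 bp.

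The Ryk gene lin-18 was not bound, although 5 conservative summits lay within 10 kb of it. The nearest, of 72.2, lay 2414 bp upstream, and a pair of 71.2 and 27.2 lay at 5742 and 5542 bp, only 200 bp apart, over a single peak in each replicate's ranked list. For these 3 upstream summits lin-18 had the nearest protein-coding start, and each was near an annotated noncoding RNA gene. None of the 3 was in the thresholded list of either replicate. A further pair, of 83.0 and 120, lay past the 3' end of lin-18 on tRNA genes. Both of its summits were in the window of C16B8.3, at 948 and 1482 bp upstream of that gene. The Frizzled gene mig-1, which acts in the Q neuroblasts, had a peak of 91.4 at 3977 bp upstream, nearer to it than to any other protein-coding gene. Past the 3' end of mig-1 lay a peak of 59.3, in an intron of nas-30 and within 200 bp of a tRNA gene. The Frizzled genes lin-17 and cfz-2 had no conservative summit within 10 kb, and neither had sfrp-1, the secreted Frizzled-related inhibitor.

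**Figure D2:**
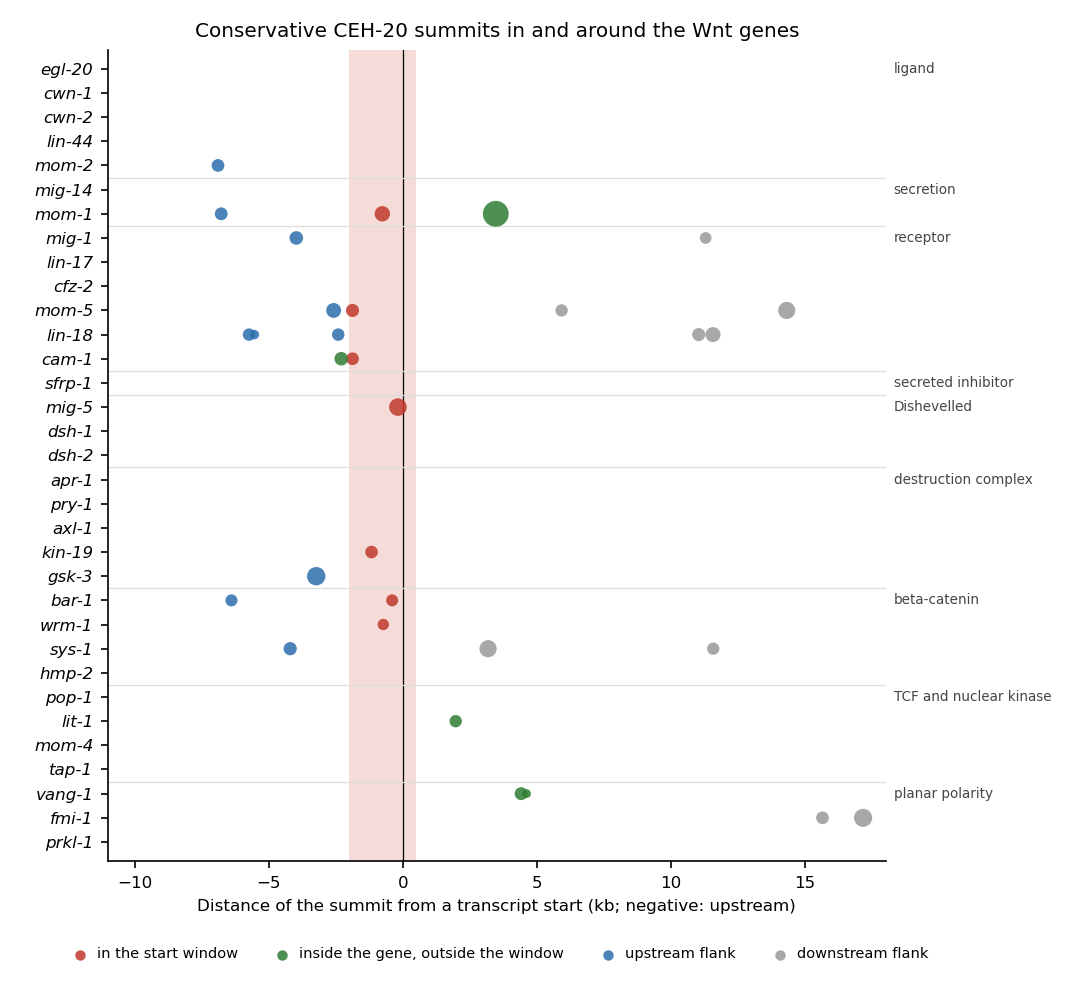
Distance in kb of each conservative summit from a transcript start of the Wnt gene it lies in or within 10 kb of, negative upstream, with genes ordered by role. Larger dots are stronger peaks and the shaded band is the start window, of 2000 bp before and 500 bp after a start. The band holds 7 dots, all left of 0, and the large dot right of it is the intron peak of mom-1 with a signal of 425.

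Of the 3 Dishevelled genes, which relay the signal from the receptors, mig-5 was bound (against 9.57% of all genes) and dsh-1 and dsh-2 were not. The mig-5 peak (WBGene00003241, chrII:8185052-8185367) lay between genes, 187 bp upstream of mig-5 and 233 bp upstream of cct-1, a chaperonin subunit gene on the other strand. Its signal of 178 ranked 202 of 2522. It was in the thresholded lists of both replicates, with signals of 90.4 and 90.0 and places in the top 0.552% and 0.540% of their ranked lists for replicates 1 and 2. For dsh-1 and dsh-2 the nearest conservative summits were 18595 and 24106 bp from a start, and their ranked window peaks of 32.8 and 34.7 were in the top 22.4% and 19.2%.

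Of the 5 genes of the complex that destroys beta-catenin, kin-19 was bound (against 9.57% of all genes). The kin-19 peak (WBGene00002202, chrIII:4087649-4087964) lay between genes, 1171 bp upstream of a start, with a signal of 74.9. It was in the top 6.42% and the top 3.97% of the ranked lists of replicates 1 and 2 and in neither thresholded list. For gsk-3 a strong peak of 198, rank 157, lay 3234 bp upstream of its start, in a coding exon 78 bp downstream of the start of Y18D10A.4. The thresholded lists of both replicates held it. The axin genes pry-1 and axl-1 and the APC-related gene apr-1 had no conservative summit within 10 kb.

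Of the 4 beta-catenin genes, 2 were bound (against 9.57% of all genes), both by weak peaks. The peak of bar-1, which codes for the beta-catenin of the canonical branch, lay 402 bp upstream (WBGene00000238, chrX:7170869-7171184) with a signal of 64.2 and rank 2038. That of wrm-1 lay 733 bp upstream (WBGene00006943, chrIII:5721959-5722274) with a signal of 52.8 and rank 2313. It was the 1 window peak of a member that the larger list did not hold, and its deposited q-value was above 0.05. Neither peak was in a replicate's thresholded list. In the ranked lists bar-1 stood in the top 5.98% and 10.3% and wrm-1 in the top 8.09% and 9.53%, for replicates 1 and 2. The cadherin-bound beta-catenin gene hmp-2 had no conservative summit within 10 kb.

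The windows of 101 bp around the summits of 5 bound genes are shown, since these summits define which genes were called. They are from RefSeq assembly WBcel235, each on the strand of its gene, at chrII:8185160-8185260 for mig-5, chrII:9301153-9301253 for cam-1, chrIII:4087757-4087857 for kin-19, chrX:7170977-7171077 for bar-1 and chrIII:5722067-5722167 for wrm-1. The first 4 are on genes of the minus strand and wrm-1 is on the plus strand. Capitals mark the Meis core TGACAG, the GATA site AGATAA and the repeat GAGAGA on either strand.
mig-5: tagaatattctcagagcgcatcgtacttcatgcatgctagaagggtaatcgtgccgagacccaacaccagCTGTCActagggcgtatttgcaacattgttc
cam-1: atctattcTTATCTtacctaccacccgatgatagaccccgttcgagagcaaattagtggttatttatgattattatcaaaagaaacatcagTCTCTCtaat
kin-19: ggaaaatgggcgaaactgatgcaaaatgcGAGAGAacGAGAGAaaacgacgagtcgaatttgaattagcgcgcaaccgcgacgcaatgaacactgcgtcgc
bar-1: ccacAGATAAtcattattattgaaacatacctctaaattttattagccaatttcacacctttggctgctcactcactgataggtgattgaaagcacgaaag
wrm-1: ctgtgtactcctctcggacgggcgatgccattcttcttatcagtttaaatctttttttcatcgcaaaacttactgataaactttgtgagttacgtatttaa

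The beta-catenin gene sys-1, a coactivator of POP-1, and the receptor gene mom-5 are near neighbours on chromosome I. They are read toward each other, with 10025 bp between their 3' ends, and 5 conservative summits lay in or within 10 kb of one of them. The strongest, of 168, lay 169 bp past the 3' end of sys-1 and 232 bp upstream of eif-3.C, a translation initiation factor gene, and was in the thresholded lists of both replicates. The intron of tsp-7, between both genes, held a peak of 68.8, and one of 85.2 lay 4205 bp upstream of sys-1 and 133 bp upstream of the histone gene his-68. Each of these 3 summits was nearest to the start of a gene outside the pathway. These 2 peaks between the genes, of 68.8 and 168, count for both mom-5 and sys-1 in the wider range. The neighbouring genes named here and at gsk-3, fmi-1, mom-1, mom-2, lin-18, mig-1 and bar-1 were picked after their values were seen.

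**Figure D3:**
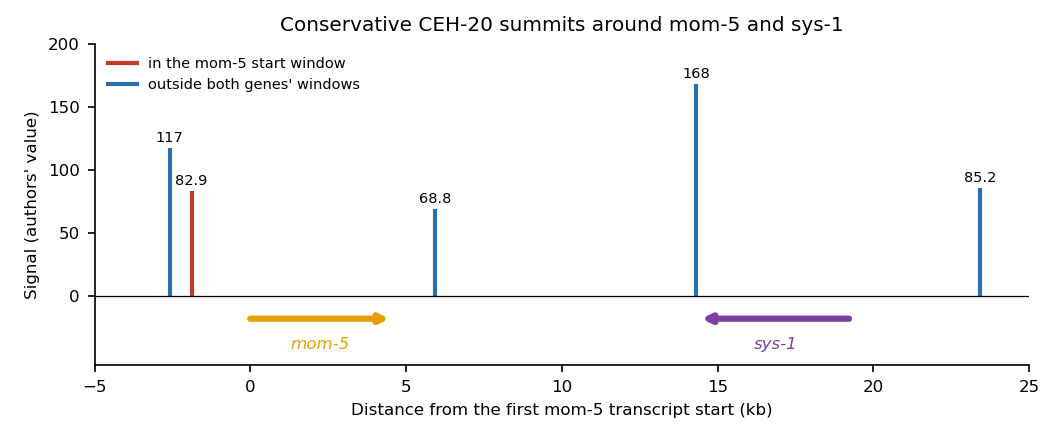
Signal of the conservative CEH-20 summits around mom-5 and sys-1 by distance in kb from the first transcript start of mom-5, with arrows for both genes in the direction of reading. The 1 summit in the mom-5 window has a signal of 82.9, and the strongest summit, of 168, stands just past the 3' end of sys-1.

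The TCF gene pop-1 and the genes lit-1, mom-4 and tap-1 had no bound member among 4 (against 9.57% of all genes). The kinase gene lit-1, whose product works with WRM-1 to lower nuclear POP-1, is the longest member at 22414 bp. An intron summit of 69.3 lay 1968 bp downstream of its nearest start and was in the thresholded list of replicate 2. That list also held a summit of 43.2 at 144 bp upstream of a lit-1 start, at chrIII:13719112-13719391, which no conservative peak matched, so lit-1 counted as bound in replicate 2 alone. Neither pop-1 nor mom-4 and tap-1, which act upstream of LIT-1, had a conservative summit within 10 kb. The pop-1 window held a ranked peak of 55.8, in the top 5.47%.

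None of the 3 planar polarity genes was bound (against 9.57% of all genes). The Van Gogh gene vang-1 had a peak of 79.8 in a coding exon, 4407 bp downstream of a start, and a weak one of 18.4 in its 3' UTR, 201 bp away, over the same peak in each replicate's ranked list. The Flamingo gene fmi-1 had a pair of peaks past its 3' end, of 76.0 and 192, which lay 118 bp upstream of scyl-1 and 358 bp upstream of lap-2. The peak of 192 was 9953 bp past the end of fmi-1 and in the thresholded lists of both replicates. The Prickle gene prkl-1 had no conservative summit within 10 kb.

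Most of the unbound members had a window peak in the ranked list. Of the 26, 19 had a ranked summit in the window. The strongest in each window had signals from 18.4 at apr-1 to 58.5 at lit-1, with a median of 39.3. The median over all peaks of the ranked list was 22.5. With the 7 bound genes this made 26 of 33 members with a ranked summit (78.8%, against 65.9% of all genes). The next after lit-1 were pry-1 at 56.5, pop-1 at 55.8 and mig-1 at 54.8, all above the 52.8 of the bound gene wrm-1, so strength alone did not order bound and unbound members. The 7 without a ranked summit were egl-20, cwn-2, lin-44, cfz-2, sfrp-1, mom-4 and tap-1. In the ranked list of replicate 1, 23 members had a summit (69.7%, against 63.5%), and in that of replicate 2, 29 had one (87.9%, against 61%). The other ranked list of the series gave 27 (81.8%, against 65.5%). The genes egl-20, cwn-2, sfrp-1 and mom-4 had none in either.

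**Figure D4:**
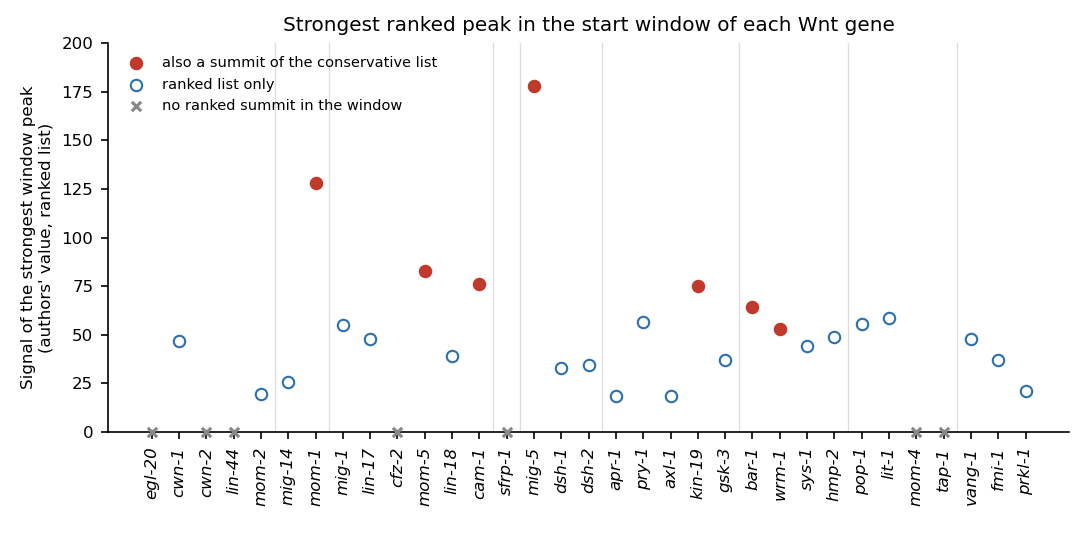
Signal of the strongest peak of the ranked list in the start window of each of the 33 Wnt genes, ordered by role, on the authors' scale. Filled points are genes bound in the conservative list, open points have a ranked peak only, and crosses at the base mark genes with no ranked summit in the window. The bound genes reach from 52.8 at wrm-1 to 178 at mig-5, and the open points reach 58.5 at lit-1.

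Around the members there were 29 distinct conservative peaks, counting a peak near both mom-5 and sys-1 once. The thresholded lists of both replicates held 7 of the 29 (24.1%), against 34.1% of all conservative peaks. Neither list held 15 (51.7%), against 34.7% of all. These 15 include the close pair upstream of lin-18 and the pair at vang-1, each over a single peak in each replicate's ranked list. The thresholded list of replicate 2 alone held 7 (24.1%, against 18.6%) and that of replicate 1 alone held none (0%, against 12.5%). The 7 held by both lists were the intron and window peaks of mom-1, those at mig-5 and gsk-3, the one past sys-1, the far one past fmi-1 and the stronger tRNA peak past lin-18. These differences were not tested. By place, 18 of the 29 summits were intergenic, 8 intronic, 2 in coding exons and 1 in a 3' UTR. A tRNA gene lay within 200 bp of 6 of them (20.7%, against 8.92% of all conservative peaks), namely the pair upstream of mom-1, the pair past lin-18, the far upstream one of bar-1, with a signal of 64.9, and the one past mig-1. The far upstream peak of bar-1 was in the window of F43E12.1, at 620 bp upstream of that gene.

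**Figure D5:**
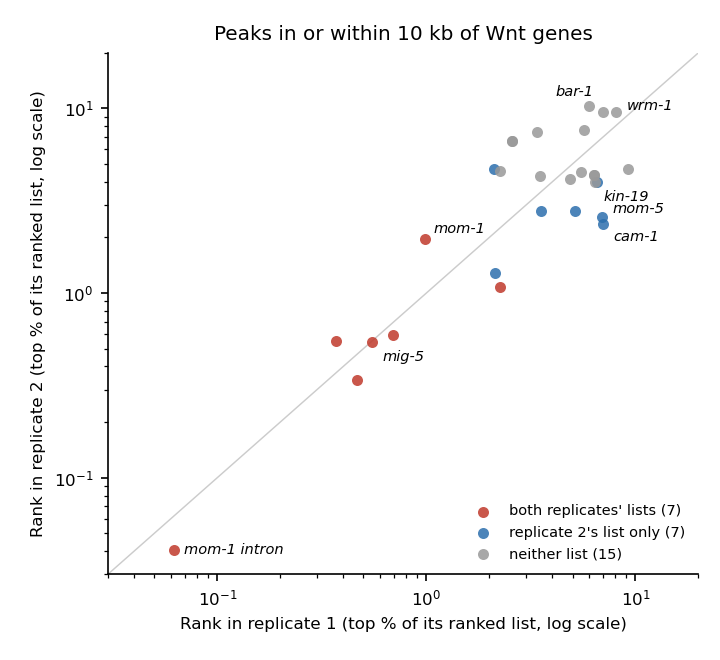
Rank of the 29 conservative peaks in or within 10 kb of Wnt genes in the ranked list of replicate 1 and of replicate 2, as the top percent of each list on log axes, coloured by the thresholded lists that hold them. The window peaks and the intron peak of mom-1 are named. The close pair upstream of lin-18 falls on a single dot, and so does the pair at vang-1. The 7 peaks of both lists lie toward the lower left, with the mom-1 intron peak at 0.0621% and 0.0407%.

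Among the motifs searched, the PBX-Hox, PBX-Meis and Meis letters are those known from sites of CEH-20-type proteins and their partners. All motifs were counted in the 50 bp on each side of a summit, on both strands. None of the 7 window peaks held the PBX-Hox composite TGATNNAT there, and it was found in 3 of the 29 (10.3%, against 10.2% of all conservative peaks). These were the upstream peak of mig-1, the stronger upstream peak of mom-5 and the peak of 192 past fmi-1. The PBX-Meis composite TGATTGAC was in none of the 29 (0%, against 0.753%), and the Meis core TGACAG in 2 (6.90%, against 4.88%), at mig-5 and past fmi-1. The TCF core TCAAAG was in none (0%, against 4.76%), the E-box CACGTG in 1 (3.45%, against 5.43%), GAGAGA in 8 (27.6%, against 22.3%) and AGATAA in 3 (10.3%, against 5.31%). Of the motifs taken from an earlier scan of these same peaks, CGTCTC was in 8 (27.6%, against 15.4%) and AGACGCAG in 4 (13.8%, against 7.30%), which partly overlap each other and GAGAGA. Within 25 bp of the summit CGTCTC was in 2 (6.9%, against 8.33%) and AGACGCAG in 1 (3.45%, against 3.69%). Over the whole peak CGTCTC was in 13 (44.8%, against 28.2%) and AGACGCAG in 6 (20.7%, against 13.8%). Over that longer stretch TGATNNAT was in 3 of the 7 window peaks, against 24.3% of all conservative peaks. A match of letters is a description and not a site, and no test was made. Within 50 bp of the summit, the median share of G and C was 40.6% in the 7 window peaks and 47.5% in the 29, against 46.5% over all conservative peaks.

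The 2 sequences that follow show the composite and the overlapping letters in place. They are from RefSeq assembly WBcel235 on the plus strand, which is that of both genes, at chrV:13043304-13043404 past fmi-1 and chrIII:13721314-13721414 in the intron of lit-1. Capitals mark, from left to right, TGATNNAT and TGACAG on the other strand and GAGAGA past fmi-1, and in lit-1 a run in which the repeat GAGAGA overlaps both the motif CGTCTC, read on the other strand, and the motif AGACGCAG.
fmi-1: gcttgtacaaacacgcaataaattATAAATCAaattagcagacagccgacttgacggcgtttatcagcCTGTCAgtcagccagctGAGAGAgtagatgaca
lit-1: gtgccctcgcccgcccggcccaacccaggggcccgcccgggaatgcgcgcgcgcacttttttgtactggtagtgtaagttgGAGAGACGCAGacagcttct

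Other genes that act with the pathway were bound in 8 of 20 cases (40%, against 9.57% of all genes). They were led by cbp-1, a CBP/p300-type acetyltransferase gene, whose peak of 332 lay 870 bp upstream and ranked 39. Next came dpy-23, an AP2 adaptor gene needed to recycle MIG-14, at 160, mtm-3, a myotubularin gene, at 155, and let-92, the catalytic subunit gene of the phosphatase PP2A, at 109. These 4 peaks were in the thresholded lists of both replicates. The phosphatase subunit gene sur-6 was at 77.8 and in the list of replicate 1, and the Groucho gene unc-37, a corepressor of POP-1, was at 74.6 and in that of replicate 2. The Rac-type GTPase gene mig-2, at 70.3, and the F-box gene lin-23, at 67.9, were in neither. The let-92 window peak also lay in the window of ech-2, and that of mig-2 was only 203 bp from the start of selt-1.1. The retromer genes vps-35, vps-26 and vps-29, the cadherin gene hmr-1 and the other 8 of the list were not bound.

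Genes known to respond to Wnt signals were bound in 4 of 11 cases (36.4%, against 9.57% of all genes). The Meis-type gene psa-3 was at 179 and the zinc finger gene tlp-1 at 116, and both peaks were in the thresholded lists of both replicates. The Hox gene lin-39 was at 82.6, in the list of replicate 2, and the GATA gene end-3, at 75.2, was in neither and lay also in the window of ddx-17. The PBX-Hox composite was within 50 bp of the summits at tlp-1 and lin-39, and TCAAAG within 50 bp of that at end-3. The other Hox genes mab-5 and egl-5, and egl-18, elt-6, ceh-22, end-1 and ttx-3, were not bound in the conservative list. In the larger list mab-5 was bound, with a signal of 64.3. Both of these gene lists were drawn up with earlier results of these data known, lin-39 and psa-3 being among them, and their shares were not tested.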

How the data were processed

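ChIP-seq peak lists of 2 replicates of 1 group were used. Per the deposited file descriptions the assembly is ce11, and they name the alignment files behind each list. No aligner or peak caller is given in the sources used here. For each peak the authors deposited a score scaled by IDR up to 1000 (at least 830 in thresholded lists), a signal, and a −log10 q-value, which was below that of 0.05 for 216 conservative peaks. The 4 columns of per-input signals in the series' ranked lists were not used. Replicate values are from each replicate's own ranked list, as the strongest peak overlapping by at least 1 bp.

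Sequence was from RefSeq assembly WBcel235, which is ce11, and genes were from Ensembl release 115 on the same assembly. A summit was column 2 plus column 10, printed 1-based. All members were named, together with genes sharing a window peak and bound genes of 2 further lists. Members, lists and motifs were chosen with earlier results of these data known. No test was made, since there was 1 group and the list of members was drawn up with those results known. The window rule was checked against a second code on made-up peaks. Replicates were separate biological samples per the labels. The tables were made with pandas 2.3.3 and numpy 2.4.6 under Python 3.11.15, and the figures with matplotlib 3.10.9.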

Additional observations from a re-analysis of the deposited data

How the results depend on the processing

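No paired analysis was possible because there was 1 group. The count of bound members, 7 in the conservative list, was between 2 and 5 when 1 replicate's list was used alone (replicate 2's list held lit-1 and lacked bar-1, kin-19 and wrm-1), 2 in the strongest 630 and also 2 in the strongest 1261 conservative peaks, 4 with a window of 1000 bp upstream and 200 bp downstream, 11 with 5000 bp upstream, and 26 in the ranked list, an alternative added after seeing the data. Genes gained with 5000 bp were gsk-3, lin-18, mig-1 and sys-1. With only the nearest start counted it was 5, without mom-1 and mom-5. Without peaks near tRNA genes it was 6, without mom-1. The count of members with a summit in the body or within 10 kb, 15 in the conservative list, was between 7 and 11 with 1 replicate's list, 7 in the strongest 630 and 9 in the strongest 1261 peaks. Without summits that lie only in another gene's window, an alternative also added after seeing the data, it was 13. The count of other pathway genes bound, 8 in the conservative list, was 5 with either replicate's list. The shares of all genes there were 5.21% for replicate 1 and 6.31% for replicate 2. It was 3 and 4 in the strongest 630 and 1261 peaks (against 3.12% and 5.62% of all genes) and 4 with the narrow window (against 6.78%). The count of responding genes bound, 4 in the conservative list, was 2 with the list of replicate 1 (against 5.21% of all genes). It was 3 with the list of replicate 2 (against 6.31%), and 2 in the strongest 630 and in the strongest 1261 peaks (against 3.12% and 5.62%). Over the whole peak in place of 50 bp the counts among 29 peaks were 9 for TGATNNAT (31%, against 24.3% of all conservative peaks), 4 for TGACAG (13.8%, against 12.8%), 6 for TCAAAG (20.7%, against 17.5%) and 2 for CACGTG (6.9%, against 12.4%). Within 25 bp they were 0 for CACGTG (0%, against 2.78%), 3 for GAGAGA (10.3%, against 12.5%) and 1 for AGATAA (3.45%, against 2.46%). The larger stretch holds more positions, and the other causes were not tested. With no read counts, what depth limits could not be computed.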

Other observations

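By chromosome, 2 of the 3 members on III, 2 of the 5 on X and 2 of the 6 on II were bound, against 13.8%, 12.3% and 8.79% of all genes there. On I, which holds 12 members, 1 was bound, against 10.6% of all genes there, and none of the 4 on IV or the 3 on V was, against 8.50% and 6.53%.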
